A study of Drosophila melanogaster with 1908 samples.

Results

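The data compare nuclei of Drosophila melanogaster embryos collected 12 to 16 h after egg laying with nuclei of embryos collected 8 to 12 h after egg laying. Members were chosen by the collection window in the deposited table of cells, in the 3 sci-RNA-seq3 experiments that held both windows (experiments 1, 3 and 10). This gave 103369 of the 547805 nuclei of the series, of which 37139 came from the 12-16 h window and 66230 from the 8-12 h window. No other experiment held a nucleus of either window. All embryos were untreated, wild-type Canton S, pooled over the hours of a collection, and aged at 25 °C before freezing. In sci-RNA-seq3 the transcripts of fixed nuclei receive a window-specific index at reverse transcription, then indices of ligation and of the PCR well, and are counted as unique molecular identifiers (UMIs). UMIs were summed over the nuclei of an experiment and window, giving 3 pairs of sums, and values below are given for experiments 1, 3 and 10 in that order.

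The hours compared lie on both sides of a change in the work of the embryo. In the earlier window, after the segments have been laid down, the germ band shortens and dorsal closure begins, neuroblasts formed before it still divide, and founder myoblasts fuse. During the later window tissues differentiate: epidermis and trachea secrete chitin and cuticle, muscles assemble sarcomeres, neurons form synapses, and a pulse of the steroid hormone ecdysone, produced earlier, has passed its peak. In sums over whole embryos, fewer cells of a type and less RNA per cell cannot be told apart.

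The 12-16 h sums held 25955, 6773 and 4411 nuclei with 10528933, 3053752 and 1861697 UMIs, and the 8-12 h sums held 41020, 9089 and 16121 nuclei with 20161318, 5046993 and 9251197 UMIs. The median number of UMIs per nucleus averaged 339.3 at 12-16 h and 372.7 at 8-12 h over the experiments. The age that the authors' neural network inferred from expression had medians of 13.6 to 13.9 h at 12-16 h and of 9.85 to 9.92 h at 8-12 h, a mean difference of 3.90 h ± 0.17 (SD, n = 3, exact sign-flip permutation p = 0.25, two-sided, the smallest that 3 pairs allow). Because that network was trained on the collection windows, this age is no independent check of the label. Of the 8-12 h nuclei 3.95 to 9.58% had an inferred age over 12 h, the most in experiment 3. Experiment 3 stood apart in ribosomal protein transcripts, with a median of 0.485% of UMIs at 12-16 h and 0.787% at 8-12 h, against 2.19 to 3.64% at 12-16 h and 3.27 to 7.85% at 8-12 h in experiments 1 and 10. Of 26606 barcodes 949 occurred in more than 1 experiment, none was shared by the windows within an experiment, and no full cell name recurred.

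Of 10345 genes with enough counts to be tested, 2669 rose and 2395 fell at 12-16 h, against 8-12 h, in a model with experiment as a block (edgeR quasi-likelihood test, FDR under 0.05). The shares of tested genes were 25.8% higher and 23.2% lower, and each list below is to be read against them. A difference of at least 2-fold was reached by 2252 of the genes that rose and by 1087 of the genes that fell. The values of the windows did not overlap for 39.2% of the genes tested, and 5000 of the 5064 called genes had the same sign in all 3 experiments. The median log2 fold change of all genes was -0.07. Nothing in the sources says that the experiments used separate embryo collections, so the p-values measure only the spread between these sums. Without the block 2357 genes were called, of which 1775 (75.3%) rose, against 52.7% of the calls with it, and list counts below that change by over 1.5 times are given both ways. The balance of rises and falls also depended on other settings. With library sizes alone 2546 rose and 2808 fell, and falls also outnumbered rises when low counts were not filtered, when nuclei were kept only if their inferred age lay in their window, when all windows shared 1 fit, and when ribosomal, mitochondrial and rRNA genes were left out. Of the genes named here, 37 lost their call without the block, namely abd-A, Abd-B, apolpp, Atpalpha, bou, CG15597, comm, Cont, cora, CycB, Eip74EF, Gli, grh, hid, kune, l(2)gl, Lac, Mef2, mld, NimC4, NPFR, nrv2, nvd, Pal1, Pal2, pck, Phm, Pxn, reb, RpL13, Rpn13R, sinu, spo, Tsf2, TwdlM, unc-5 and vari (FDR 0.053 to 0.55, edgeR). Of these, abd-A, Abd-B, bou, CG15597, cora, CycB, Eip74EF, grh, hid, kune, l(2)gl, Mef2, mld, NPFR, nrv2, pck, Phm, reb, RpL13, sinu, spo, Tsf2 and vari also lost it when 1 of the 3 experiments was left out (FDR 0.054 to 0.26, edgeR). None changed sign while called. Genes on the small chromosome 4 were higher in 31 of 83 cases tested and lower in 12, with a median log2 fold change of 0.21. The other major arms lay between 25.7 and 28.2% higher.

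Many of the genes with the largest rises are known from the surface of the embryo. Osiris genes encode small membrane proteins of chitin-secreting cells, and all 15 tested of the 25 found rose, with a median log2 fold change of 6.01, in every setting tried that kept them in the test. Osi6 reached 6992, 2866 and 4017 UMIs per 1000000 UMIs of a sum (CPM) at 12-16 h, against 78.6, 84.5 and 70.9 CPM at 8-12 h (log2 fold change 5.80 ± 0.29, SE, n = 3 pairs). Osi20 had 375.2, 187.6 and 284.6 CPM at 12-16 h, against 1.84, 3.34 and 2.67 CPM at 8-12 h, the largest log2 fold change among the named genes with UMIs in each sum (6.89 ± 0.33). In both genes experiment 1 was highest and experiment 3 lowest at 12-16 h, and no 12-16 h value came near an 8-12 h value. Osi7, Osi9, Osi15, Osi17, Osi18 and Osi19 rose by 5.66 to 6.69 on the log2 scale. In nuclei thinned to 250 UMIs, Osi6 was detected in 46.5, 26.9 and 36.1% of nuclei at 12-16 h and in 2.50, 0.572 and 1.07% at 8-12 h.

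Position is a feature these genes share. Of the 25 Osiris genes 22 lie in one run on chromosome arm 3R between 6173549 and 6341424 (BDGP6 annotation of Ensembl), and the 15 tested ones are all in it. Osi20 lies at 6340095 to 6341424 and Osi6 at 6234708 to 6237181, both on the plus strand. The run holds 7 other annotated genes, and the 5 of them that were tested also rose. They had far lower levels, and as for the Osiris genes, those near 0 at 8-12 h passed the filter on counts by the 12-16 h sums alone. NPFR, the neuropeptide F receptor, averaged 3.85 ± 1.61 CPM at 12-16 h and 1.24 ± 0.31 CPM at 8-12 h (SD, n = 3 each), and CG46026 averaged 3.12 ± 0.62 CPM at 12-16 h and 0.0743 ± 0.129 CPM at 8-12 h. CG15594, CG15597 and CG46396 were the others, and CG15597 and NPFR were not called without the block or without experiment 3. The counting is not stated to use strand, so reads of overlapping neighbours cannot be assigned with certainty.

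**Figure D1:**
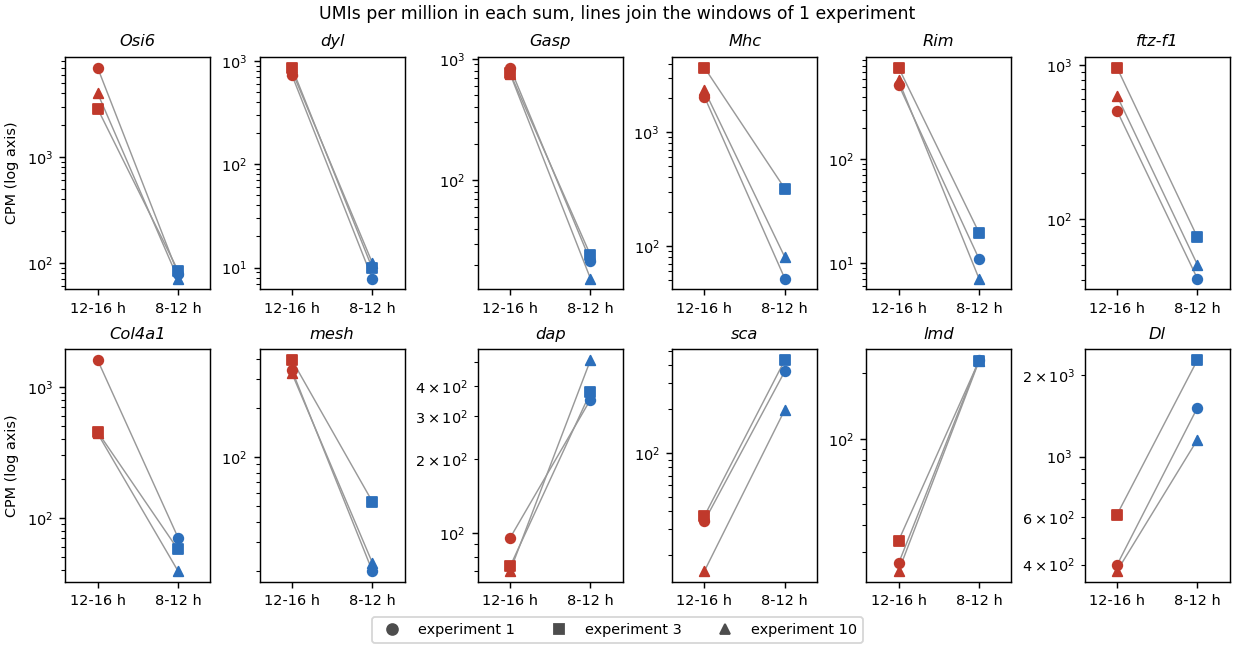
CPM (log axis) of 12 genes in the sums of 12-16 h (left, red) and 8-12 h (right, blue) of each experiment, with a line for each pair. The lines of Osi6, dyl, Gasp, Mhc, Rim, ftz-f1, Col4a1 and mesh fall to the right and those of dap, sca, lmd and Dl rise to the right, and in none of these genes do the windows overlap.

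Chitin synthesis and its matrix followed, with 19 of 22 genes higher, none lower and a median log2 fold change of 2.49. Gasp, a chitin-binding protein of the tracheal matrix, had 847, 763 and 754 CPM at 12-16 h, against 21.8, 24.3 and 15.6 CPM at 8-12 h (log2 fold change 5.29 ± 0.23). The 3 experiments were close to each other in each window. The chitin synthase kkv rose by 2.15, its partners exp and reb by 3.16 and 1.28, and knk, which protects new chitin, by 2.54 on the log2 scale. The chitin deacetylases verm and serp were already above 140 CPM at 8-12 h and rose by 1.88 and 2.38. Of the 3 genes not called, mmy makes the precursor of chitin, and mmy, rtv and Cht2 had log2 fold changes of 0.21, 0.19 and 0.23.

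Zona pellucida proteins anchor the apical membrane to the cuticle and shape the denticles. Of 12 tested 9 rose and none fell. The gene dyl had 728, 860 and 800 CPM at 12-16 h, against 7.81, 9.81 and 11.1 CPM at 8-12 h (log2 fold change 6.39 ± 0.24), and mey, tyn, nyo and neo rose by 3.83, 2.05, 2.08 and 1.597. The very large protein gene dpy did not pass the test, with 1035, 2160 and 1137 CPM at 12-16 h and 949, 2261 and 741 CPM at 8-12 h. There the windows overlapped, and experiment 3 was highest in each of them. The genes pio and qsm were likewise not called.

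Structural cuticle proteins were at low levels. Of 70 Cpr genes, which carry a chitin-binding domain, 25 were tested, and 21 rose and none fell, with log2 fold changes from -0.49 to 6.16. With no filter on low counts 30 of 68 rose and 1 fell, and without experiment 10 the count of falls was 1. Cpr64Ad had 66.4, 54.8 and 39.2 CPM at 12-16 h, against 2.85, 6.69 and 1.95 CPM at 8-12 h. Of the 26 Tweedle genes, a second family of cuticle proteins, 16 of 17 tested rose, and 10 did so without the block. TwdlT had 74.9, 31.4 and 32.2 CPM at 12-16 h, against 0.921, 1.34 and 1.74 CPM at 8-12 h. TwdlM was less even, with 45.7, 51.8 and 19.1 CPM at 12-16 h and 2.81, 32.3 and 2.16 CPM at 8-12 h, where experiment 3 exceeded the 12-16 h value of experiment 10. A gene tested here had to pass the filter on counts, which a gene high at 12-16 h only can do by that window alone, so these shares hold for the tested members and not for the whole families. Related members can share reads, and how such reads were counted is not known.

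Tanning hardens and darkens the cuticle by dopamine derivatives. Of 16 tested genes 13 rose and none fell. The tyrosine hydroxylase gene ple, which starts the pathway, had 38.3, 56.3 and 35.7 CPM at 12-16 h, against 0.790, 2.90 and 1.44 CPM at 8-12 h, a log2 fold change of 4.88 ± 0.32. The next enzyme, Ddc, was not called, with 4.44, 6.43 and 1.01 CPM at 12-16 h and 1.71, 3.12 and 0.616 CPM at 8-12 h. The straw gene stw, which encodes a laccase, rose by 4.37.

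**Figure D2:**
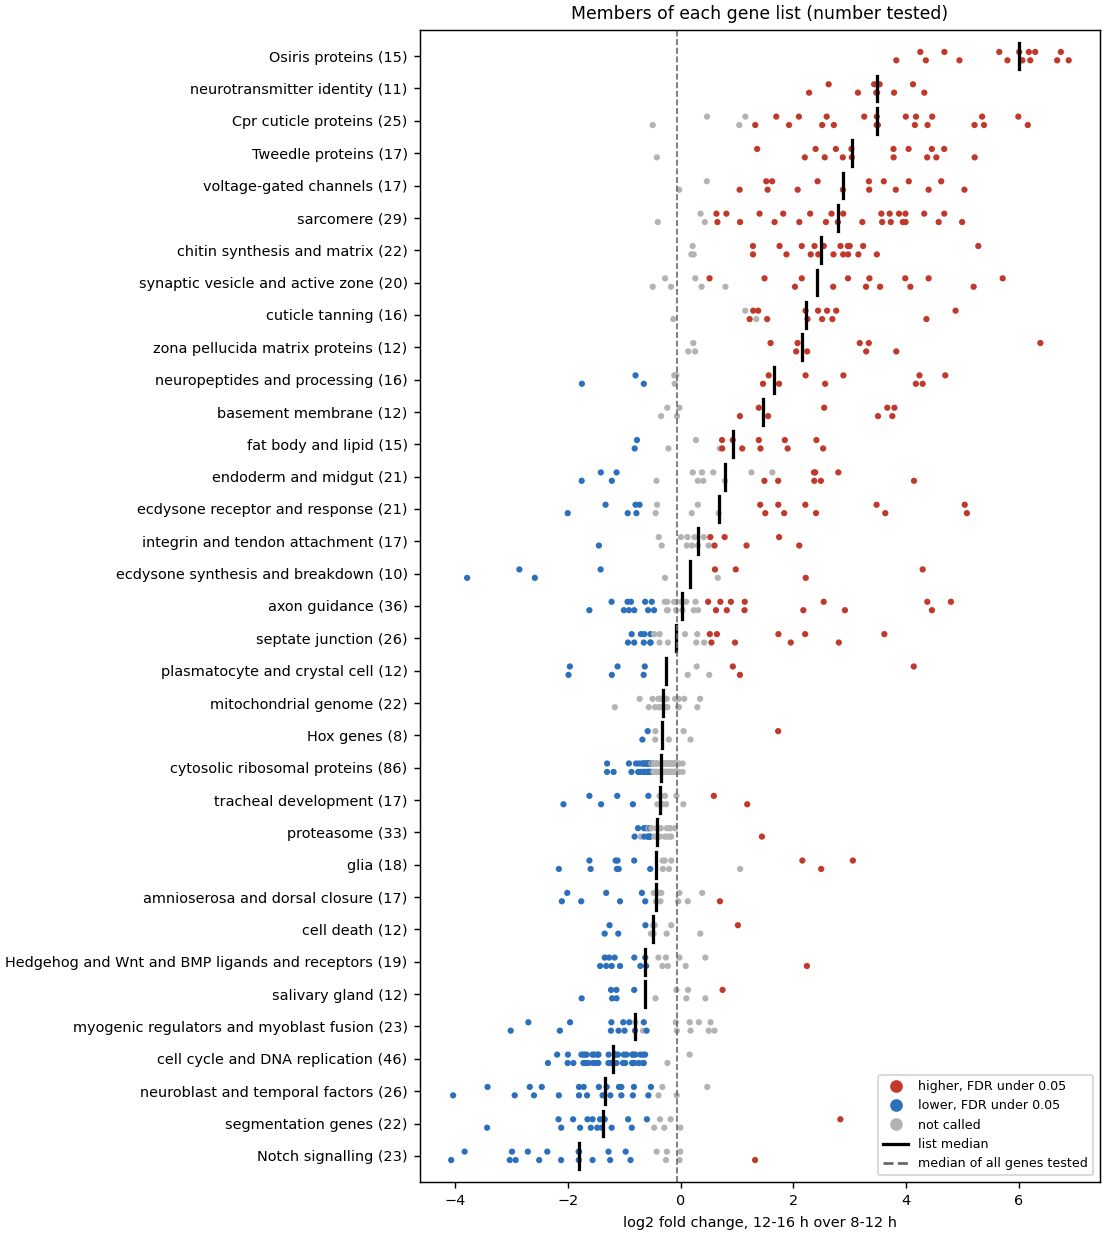
Log2 fold change of every tested member of 35 gene lists, 12-16 h over 8-12 h, with the number tested in parentheses, black bars for list medians and a dashed line for the median of all genes. Red points are higher and blue points lower at FDR under 0.05, and the lists run from Osiris proteins with a median of 6.01 at the top to Notch signalling with a median of -1.80 at the bottom.

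Muscle genes split by their place in the life of a muscle fibre. Of 29 sarcomere genes tested, 26 rose, none fell and the median log2 fold change was 2.79. Muscle myosin heavy chain, Mhc, had 2052, 3701 and 2339 CPM at 12-16 h, against 51.6, 319.01 and 79.6 CPM at 8-12 h (log2 fold change 4.58 ± 0.31), with experiment 3 highest in each window. Troponin T, up, had 1785, 2112 and 1955 CPM at 12-16 h, against 59.3, 87.4 and 43.4 CPM at 8-12 h, and the giant protein projectin, bt, rose by 4.33. Act57B rose by 1.67, whereas Act87E was not called, with 98.2, 80.2 and 141.3 CPM at 12-16 h and 110, 90.7 and 258.7 CPM at 8-12 h. The coding parts of actin genes are near-identical, so their reads are uncertain. The calcium release channel RyR and the non-muscle light chain Mlc-c were also not called.

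Regulators of myoblasts and of their fusion went the other way, with 13 of 23 lower, none higher and a median log2 fold change of -0.81, and 5 lower without the block. The factor lmd, which directs fusion-competent myoblasts, had 26.7, 34.03 and 24.6 CPM at 12-16 h, against 230.2, 228.5 and 227.6 CPM at 8-12 h (log2 fold change -3.02 ± 0.21). All 3 experiments lay within a few CPM of each other at 8-12 h. The fusion gene sing fell by 2.704, and mbc, which links fusion receptors to actin, fell by 1.24. The muscle inhibitor Him and the zinc finger gene Kah fell by 2.14 and 1.96, and Mef2, which drives muscle structural genes, fell by 0.65. The identity genes ap, lms, nau and vg and the fusion genes kirre and rols were not called. The muscle attachment list was mixed, with 6 of 17 higher and 1 lower (2 and 1 without the block, 6 and 3 without experiment 10, and 6 and 2 with library sizes alone). In it sr, the tendon cell factor, rose by 2.11, and scb, an integrin alpha subunit, fell by 1.45.

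Genes of working neurons rose. Of 20 genes of synaptic vesicles and active zones 14 rose and none fell, with a median log2 fold change of 2.43. Rim, which positions calcium channels at the release site, had 523.1, 765 and 576.3 CPM at 12-16 h, against 11.0, 19.6 and 7.08 CPM at 8-12 h (log2 fold change 5.72 ± 0.26). The vesicle calcium sensor Syt1 had 382.3, 633.4 and 394.2 CPM at 12-16 h, against 11.7, 16.1 and 9.96 CPM at 8-12 h, and nSyb, brp and Syn rose by 4.08, 3.29 and 3.99. The fusion gene Snap25 rose by 2.71. The 6 genes not called were Rop, Csp, EndoA, unc-13, lap and Synj, with log2 fold changes of -0.50, -0.17, -0.28, 0.26, 0.37 and 0.80. With library sizes alone 13 rose and 1 fell.

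Ion channels rose in 15 of 17 cases, with a median log2 fold change of 2.88. The calcium-gated potassium channel slo had 607.6, 889 and 523.5 CPM at 12-16 h, against 21.2, 33.7 and 10.8 CPM at 8-12 h, and the sodium channel para had 259.2, 424.3 and 298.7 CPM at 12-16 h, against 10.5, 15.8 and 12.9 CPM at 8-12 h. In both genes experiment 3 was highest in each window. All 11 tested genes of transmitter identity rose, with a median of 3.48. They covered glutamate (VGlut, 3.49), acetylcholine (ChAT, 3.79, and VAChT, 3.48, which share a locus, so that their reads cannot be separated), GABA (Gad1, 3.48) and monoamines (Vmat, 2.28). The levels stayed low, with VGlut at 24.9, 36.3 and 21.1 CPM at 12-16 h and 2.41, 2.23 and 2.26 CPM at 8-12 h.

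Neuropeptide genes were mixed. Of 16 tested of 34 found, 10 rose and 3 fell, and these counts were 8 and 1 without the block and 6 and 2 without experiment 1. With no filter on low counts 14 of 34 rose and 3 fell. With at least 10 CPM in 3 sums 1 of 5 rose and 2 fell. A member near 0 at 8-12 h can pass the filter by the 12-16 h sums alone, so the balance depends on the filter. The prohormone convertase amon, needed to cut most peptides, had 24.1, 23.8 and 16.6 CPM at 12-16 h, against 1.10, 1.11 and 0.308 CPM at 8-12 h. AstA, Mip and Burs rose by 4.30, 4.24 and 4.18. The amidation genes Phm and Pal1 fell by 0.65 and 0.80, while Pal2 rose by 1.56. ETH, the ecdysis triggering hormone, fell to 4.44, 2.65 and 2.51 CPM at 12-16 h, against 10.1, 7.80 and 20.3 CPM at 8-12 h. Among 36 axon guidance genes 13 rose and 11 fell (6 and 2 without the block), and the median was 0.02. The count of falls was 7 without experiment 1, 5 without experiment 3 and 16 without experiment 10. Dscam3, CadN2 and robo3 rose by 4.80, 4.46 and 4.38. The repulsion receptor gene unc-5, comm, which removes Robo from the surface, and the leucine-rich repeat genes Toll-6 and trn fell by 1.01, 0.94, 1.62 and 1.23. The ligand sli and the receptors fra, Dscam1 and Fas2 were not called.

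Genes of neural progenitors fell. Of 26 neuroblast and temporal factors 22 fell and none rose (1 without experiment 10), with a median log2 fold change of -1.35. The neuroblast gene ase had 4.72, 1.89 and 5.53 CPM at 12-16 h, against 26.9, 20.1 and 56.8 CPM at 8-12 h. The neuroblast factor wor had 12.3, 10.6 and 18.6 CPM at 12-16 h, against 62.2, 57.5 and 156.7 CPM at 8-12 h (log2 fold change -2.60 ± 0.24), with experiment 10 highest in each window. Neuroblasts express hb, Kr, the pdm genes, cas and grh in turn. The first of them, hb, fell by 2.47, followed by Kr with a fall of 1.45, pdm2 and nub that were not called, cas with a fall of 1.31 and grh with a fall of 0.57. These genes are also active outside the nervous system, and the sums do not separate those sources.

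Notch signalling singles out neuroblasts and sensory precursors from their neighbours. Of its 23 genes 17 fell and 1 rose, with a median of -1.80, the lowest of all lists. The ligand Dl had 399.1, 611.5 and 379.2 CPM at 12-16 h, against 1514, 2269 and 1155 CPM at 8-12 h (log2 fold change -1.81 ± 0.19), and the receptor N fell by 1.56. The Bearded-type inhibitor Brd had 5.29, 0.756 and 1.51 CPM at 12-16 h, against 86.8, 16.1 and 24.5 CPM at 8-12 h. Of the target genes in the E(spl) complex, E(spl)mdelta-HLH and E(spl)m8-HLH fell by 3.03 and 2.37. The secreted factor sca fell to 34.2, 37.1 and 15.6 CPM at 12-16 h, against 361.1, 430.7 and 197.05 CPM at 8-12 h. The nuclear partners Su(H), H and mam were not called. The exception was fng, a glycosyltransferase that modifies the receptor, with 725, 647.8 and 689 CPM at 12-16 h, against 296.5, 374.7 and 186.3 CPM at 8-12 h (log2 fold change 1.32 ± 0.22).

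Cell cycle genes fell in 44 of 46 cases, with none higher and a median of -1.20, and in 24 cases without the block. The mitotic phosphatase stg, whose transcription times the embryonic divisions, had 196.7, 147.9 and 230 CPM at 12-16 h, against 707, 683 and 1333 CPM at 8-12 h (log2 fold change -2.19 ± 0.20). The cell cycle inhibitor dap, which is transcribed as cells leave the cycle, had 95.4, 72.98 and 69.9 CPM at 12-16 h, against 351.7, 376.5 and 510.6 CPM at 8-12 h, a fall of 2.36. Experiment 10 was highest in both genes at 8-12 h. CycE, CycA and CycB fell by 1.28, 1.48 and 0.65. CycD and the germline phosphatase twe were the 2 genes not called. None of the replication-dependent histone genes found reached the count needed for the test.

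Patterning genes fell for the most part. Of 22 segmentation genes 16 fell and 1 rose, with a median of -1.37. The pair-rule gene ftz had 1.795, 0.378 and 1.01 CPM at 12-16 h, against 13.2, 8.25 and 21.96 CPM at 8-12 h. The segment polarity genes en, hh and wg fell by 1.91, 1.43 and 1.35. The T-box gene H15 rose by 2.84, with 35.9, 37.4 and 26.1 CPM at 12-16 h, against 5.48, 5.13 and 3.28 CPM at 8-12 h, while its neighbour and paralogue mid fell by 0.93. Among Hedgehog, Wnt and BMP ligands and receptors 11 of 19 fell (6 without the block and 7 without experiment 3), and wit, the BMP receptor of motor neurons, rose by 2.24. Of 8 Hox genes, Abd-B and abd-A fell by 0.68 and 0.58, neither of which was called without the block or without experiment 1, while 5 of the 8 were lower without experiment 10 and 4 in DESeq2. The gene lab rose by 1.73, and Ubx had 636.4, 1392 and 770 CPM at 12-16 h and 963, 2290 and 781 CPM at 8-12 h and was not called.

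Ecdysone is made from cholesterol by the Halloween enzymes, activated by shd, broken down by Cyp18a1, and read by the receptor pair of EcR and usp. The receptor turns on early genes, and a chain of nuclear receptors follows, of which ftz-f1 comes on when the hormone is gone. In these sums the last enzymes of synthesis fell. The gene sad had 1.04, 0.378 and 1.51 CPM at 12-16 h, against 15.6, 9.36 and 13.03 CPM at 8-12 h. The activating enzyme shd had 5.10, 4.54 and 6.537 CPM at 12-16 h, against 32.1, 59.1 and 32.8 CPM at 8-12 h (log2 fold change -2.86 ± 0.29), and dib and spo fell by 2.59 and 1.42. The breakdown enzyme Cyp18a1 had 248.7, 161.8 and 141.3 CPM at 12-16 h, against 8.20, 21.2 and 4.31 CPM at 8-12 h, a rise of 4.30. The paralogue of spo used after embryogenesis, spok, rose by 2.22, with 23.4, 38.2 and 11.6 CPM at 12-16 h, against 4.96, 7.36 and 2.87 CPM at 8-12 h. The first enzyme nvd and the factor mld rose by 0.98 and 0.61, and phm was not called.

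Of 21 tested genes of the ecdysone response 10 rose and 6 fell (9 and 2 without the block, and 10 and 3 without experiment 1). EcR was not called, with 1357, 3034 and 1911 CPM at 12-16 h and 1337, 3399 and 1144 CPM at 8-12 h, nor were usp and Eip75B. The secreted and membrane proteins first found as ecdysone-inducible in imaginal discs had large rises. ImpE2 had 907, 574.8 and 731 CPM at 12-16 h, against 16.2, 29.2 and 23.3 CPM at 8-12 h, and ImpL1 and ImpE1 rose by 5.08 and 3.48. The early gene Eip93F fell by 2.005 and Eip74EF by 0.80, whereas the early gene br rose by 2.21. Hr4, Hr3 and Eip78C, receptors of the middle of the chain, rose by 1.503, 1.73 and 2.40. The gene ftz-f1 had 503.6, 959 and 630 CPM at 12-16 h, against 41.1, 76.2 and 50.6 CPM at 8-12 h. Its log2 differences of 3.60, 3.64 and 3.62 were nearly the same in the 3 pairs (log2 fold change 3.63 ± 0.20, FDR = 4.4e-10, edgeR quasi-likelihood test).

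Splitting the same nuclei into hours of inferred age gave the order within the windows as a description, since the age itself was inferred from expression. As means of 3 experiments, shd was highest at 10 to 11 h with 51.8 CPM and stood at 5.40 CPM at 13 to 14 h. Eip93F was highest at 10 to 11 h with 201.2 CPM. Eip74EF had 132.6 CPM at 10 to 11 h, 41.3 CPM at 13 to 14 h and 134.5 CPM at 15 to 16 h, so that its level was lower between these hours than at them. ImpE2 was highest at 12 to 13 h with 774 CPM, Hr4 at 12 to 13 h with 2023 CPM, ImpL1 at 13 to 14 h with 531.5 CPM and ImpE1 at 14 to 15 h with 1006 CPM. The level of ftz-f1 stayed between 41.1 and 44.5 CPM up to 11 h, was 115.9 CPM at 11 to 12 h, and was higher in each later hour, up to 1122 CPM at 15 to 16 h. The bin of 11 to 12 h held the fewest nuclei in each experiment.

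**Figure D3:**
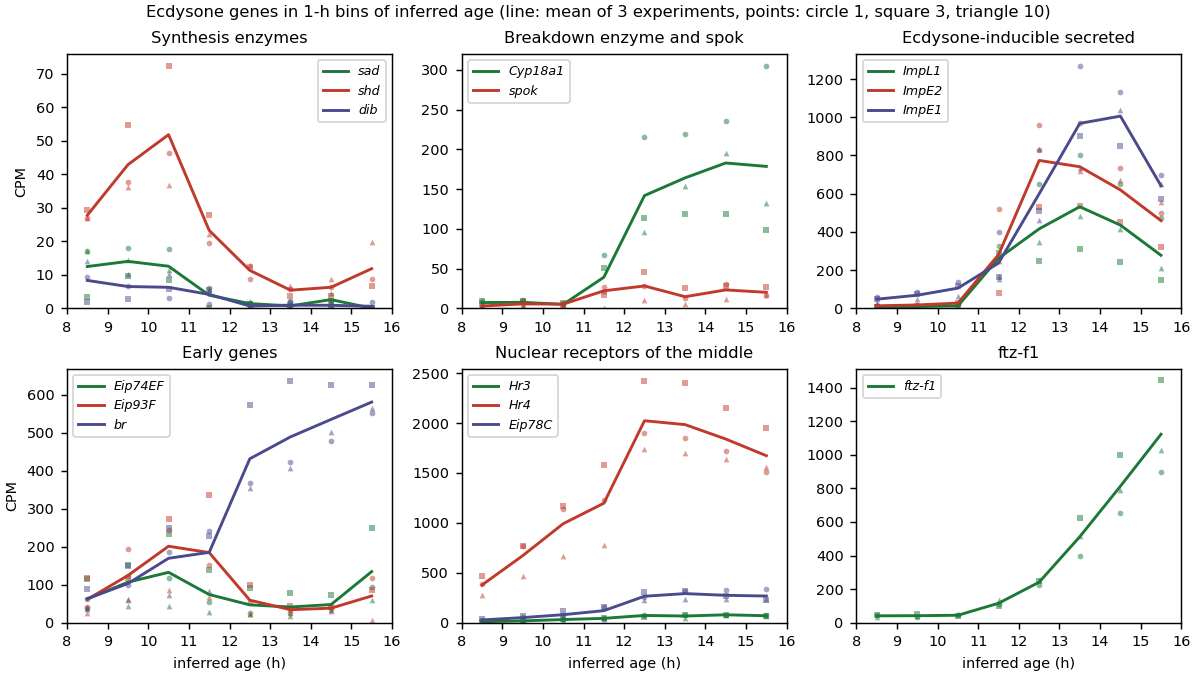
CPM of ecdysone genes (linear axes from 0) against inferred age in 1-h bins from 8 to 16 h, with lines for the mean of 3 experiments and points for each experiment. The synthesis enzymes are high before 11 h, Cyp18a1 and the ecdysone-inducible genes rise from 11 h, and ftz-f1 climbs to 1122 CPM in the last bin.

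Genes of mesodermal fat and blood were uneven between experiments. The fat body is the storage organ of the fly, and of its 15 tested genes 10 rose and 2 fell (4 and 0 without the block, and 1 fall without experiment 1 or 3). The lipoprotein apolpp, which carries lipid in the blood, had the highest level of any gene named here, with 19012, 35595 and 10680 CPM at 12-16 h, against 5683, 11009 and 2460 CPM at 8-12 h. The windows overlapped across experiments, but each experiment was higher at 12-16 h, with log2 differences of 1.74, 1.69 and 2.12. In the list of plasmatocytes and crystal cells 3 of 12 rose and 6 fell (1 and 2 without the block). NimC4 fell by 1.97, srp, the GATA factor of blood and fat body, fell by 1.22, and Pxn rose by 1.05. Hml and eater, markers of later blood cells, were at most 1.51 CPM in every sum and were not tested.

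Basement membranes are sheets of laminin, collagen IV, nidogen and perlecan under epithelia and around muscles. Of 12 genes 8 rose and none fell, with a division by molecule. The collagen IV chain Col4a1 had 1604, 454.5 and 442.02 CPM at 12-16 h, against 70.98, 57.5 and 39.4 CPM at 8-12 h (log2 fold change 3.67 ± 0.27). The other chain, vkg, which lies next to it on 2L, rose by 3.50, and SPARC, a collagen chaperone, by 2.55. Perlecan, trol, had 3852, 4045 and 3300 CPM at 12-16 h, against 287.5, 418.9 and 171.7 CPM at 8-12 h, and the collagen XV/XVIII gene Mp rose by 3.80. All 4 laminin chains tested were not called. LanA had 1683, 806 and 918 CPM at 12-16 h and 1306, 1305 and 1498 CPM at 8-12 h, higher at 12-16 h in experiment 1 and lower in the other experiments, and LanB1 and LanB2 had the same signs. Experiment 1 also had the most nuclei with plasmatocyte markers at 12-16 h, 4.93% against 1.27 and 1.61% in experiments 3 and 10. It had the most at 8-12 h as well, 2.42% against 1.08 and 1.20%, where its LanA level was not the highest. Plasmatocytes secrete laminin and collagen. Col4a1, vkg and SPARC are themselves plasmatocyte markers, so these shares are not independent of their levels. The part of this difference between experiments in the levels was not tested. Without experiment 1 the list gave the same counts, 8 higher and 0 lower, and without experiment 10 it gave 8 higher and 1 lower.

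Septate junctions seal epithelia, in a pleated form in ectoderm and a smooth form in the midgut and Malpighian tubules. Of 26 genes 9 rose and 9 fell, and without the block 5 rose and none fell. Components of the smooth form were among the genes that rose. The immunoglobulin protein mesh had 340, 393.3 and 325.9 CPM at 12-16 h, against 20.0, 53.3 and 22.5 CPM at 8-12 h (log2 fold change 3.62 ± 0.25), and the membrane proteins Tsp2A and Ssk rose by 2.81 and 2.21. The other components did not share a direction. The pump subunit Atpalpha, the cytoskeletal linkers vari and cora and the polarity gene l(2)gl rose by 0.97, 0.64, 0.55 and 0.52, whereas Lac, Cont, Tsf2, bou, pck, nrv2, sinu and kune fell by 0.94, 0.87, 0.71, 0.65, 0.64, 0.54, 0.54 and 0.53, and none of these was called without the block. In the list as a whole 6 rose and 4 fell without experiment 1, and 6 rose and 3 fell without experiment 3. The gene bark, which acts at tricellular corners, rose by 1.74, and Gli, also at those corners, fell by 0.82. CG13704, which RefSeq names hoka, rose by 1.96. Nrx-IV, Nrg, dlg1 and scrib were not called.

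Remaining tissues changed in part. Of 17 tracheal genes 6 fell and 2 rose (4 and 1 without the block, 5 and 1 without experiment 1 or 3, and 10 and 1 without experiment 10). The FGF receptor btl fell to 18.1, 16.3 and 10.6 CPM at 12-16 h, against 72.95, 60.4 and 56.4 CPM at 8-12 h, and the master gene trh was not called. Among 18 glial genes 9 fell and 3 rose (5 and 3 without the block). The glial switch gcm fell by 2.16, the astrocyte gene alrm rose by 2.16, and repo, which all lateral glia express, was not called, with 22.7, 13.2 and 18.1 CPM at 12-16 h and 18.5, 14.5 and 33.7 CPM at 8-12 h. Of 12 salivary gland genes 6 fell and 1 rose (3 and 0 without the block, and no rise without experiment 1 or 3), with CrebA, the activator of secretion, not called. In the amnioserosa list, where 7 of 17 fell and 1 rose (4 and 0 without the block), the T-box genes Doc1, Doc2 and Doc3 fell by 1.76, 2.01 and 2.11. In the cell death list 4 of 12 fell and 1 rose (2 and 0 without the block), among them hid by 0.62, and rpr and grim were not called.

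In the midgut list 8 of 21 rose and 4 fell, and 3 and 4 did so without the block. The digestive enzymes among them are genes of late embryos, and their level at 8-12 h differed by experiment. Jon25Bii had 1.51, 6.81 and 0 CPM at 12-16 h and 0, 1.11 and 28.1 CPM at 8-12 h, so that experiment 10 went the other way and the gene was not called. Without experiment 10 it was called higher. In thinned nuclei Jon25Bii was detected in 0.0308, 0.0591 and 0% at 12-16 h and in 0, 0.022 and 0.0372% at 8-12 h. The 28.1 CPM of experiment 10 thus lay in few nuclei. Experiment 10 also held 56990 nuclei of the 16-20 h window, against 18779 and 3916 in experiments 1 and 3, and whether free RNA of those nuclei reached the 8-12 h sum was not tested. Without experiment 1 the count of higher midgut genes was 3, and without experiment 10 it was 7.

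Ribosomal protein and proteasome genes were called in part and not without the block. Of 86 cytosolic ribosomal protein genes 29 (33.7%) fell, against 23.2% of all genes tested, and none rose, with a median log2 fold change of -0.35. RpL13 had 682, 193.6 and 948 CPM at 12-16 h and 901, 287.4 and 1541 CPM at 8-12 h, lower at 12-16 h in each pair, while the experiments differed more than the windows did. The count was 0 without the block, 7 without experiment 1 and 14 without experiment 3. Without experiment 10 it was 47. Of 33 proteasome genes 11 fell and 1, Rpn13R, rose, and without the block none was called. The count of falls was 2, 3 and 6 without experiments 1, 3 and 10, and 17 with library sizes alone. None of 22 mitochondrial genes passed the edgeR test, where 1 had an unadjusted p under 0.05, and none passed in DESeq2, while 4 were lower without experiment 10. At 12-16 h the median mitochondrial share of UMIs per nucleus was 0.419, 0 and 0.360%, against 0.697, 0.239 and 0.833% at 8-12 h.

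There were 25 genes with at most 3 UMIs over all 8-12 h nuclei that were called higher at 12-16 h. CG7548 had 13.04, 5.29 and 1.51 CPM at 12-16 h, against 0 UMIs in the 8-12 h sums, and was at least 125.7-fold higher, taking 3 UMIs over the 8-12 h sums as the limit. Most of its UMIs came from experiment 1, without which the bound was 17.4-fold. Osi16, a member of the Osiris run, had 10.1, 4.54 and 13.6 CPM at 12-16 h, against 3 UMIs in all at 8-12 h, a ratio of 118.4 with an exact 95% counting interval of 39.7 to 580.9. The cuticle protein gene Cpr62Bb had 6.90, 5.29 and 8.05 CPM at 12-16 h and 3 UMIs in all at 8-12 h, a ratio of 83.5 (27.8 to 411.8). Mal-B1, a maltase gene, had 12.8, 4.54 and 2.51 CPM at 12-16 h and 1 UMI at 8-12 h. CG14356 likewise had 1 UMI at 8-12 h and Cpr67Fa2 had 2, and they averaged 6.42 and 3.98 CPM at 12-16 h. The long non-coding genes lncRNA:CR44148 and lncRNA:CR44598 had 56 and 47 UMIs at 12-16 h, against 1 and 2 at 8-12 h. These intervals cover counting error only. The genes were chosen by these same counts, which favours high ratios, and the intervals do not allow for that choice.

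At the other end, link had the largest fall among genes of at least 20 CPM at 8-12 h with at least 3 UMIs in each sum, with 42.05, 17.8 and 19.6 CPM at 12-16 h, against 496.9, 275.1 and 325.4 CPM at 8-12 h (log2 fold change -3.82 ± 0.22). The guanylyl cyclase Gyc32E fell by 3.78, and sisA, an X-linked counter of X chromosomes in the early embryo, fell by 3.33. The others of the 12 largest falls were sca, lmd, ase, E(spl)mdelta-HLH and the uncharacterised CG15646, CG13427, CG10035, CG42831 and CG30431. Among the 12 largest rises, besides 6 Osiris genes and dyl, were apn, CG42331, CG13272, CG12017 and CG12723, which rose by 6.45, 6.61, 6.47, 6.20 and 6.11. The gene apn had 128.9, 60.5 and 120 CPM at 12-16 h, against 1.49, 2.23 and 0.308 CPM at 8-12 h.

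To set these levels beside the nuclei they came from, each nucleus was thinned to 250 UMIs and counted for a cell type when at least 2 of these fell on the type's markers and no other type had as many. Such a class is a range and not a type. Of the 12-16 h nuclei 78.96 to 82.8% could be placed, against 52.1 to 67.6% of the 8-12 h nuclei, and 10.8 to 13.04% at 12-16 h and 27.03 to 33.97% at 8-12 h stood at exactly 2 UMIs for their highest list. Many markers are themselves genes that changed, so a share follows marker level as well as cell number. Nuclei with somatic muscle markers made up 22.4, 25.2 and 25.3% at 12-16 h, against 8.57, 8.90 and 8.39% at 8-12 h. Nuclei with epidermal markers made up 13.02, 12.05 and 11.99% at 12-16 h, against 2.15, 2.04 and 1.64% at 8-12 h. Nuclei counted for neurons made up 10.3, 12.96 and 12.2% at 12-16 h and 7.89, 9.76 and 8.03% at 8-12 h. Those counted for trachea made up 9.26, 5.85 and 9.09% at 12-16 h and 4.29, 3.39 and 4.83% at 8-12 h. Their markers did not move together. Of the 8 tracheal markers 5 rose, among them the chitin matrix genes Gasp, verm and serp, whereas btl fell and trh was not called.

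Nuclei counted for neural progenitors made up 0.393, 0.281 and 0.680% at 12-16 h, against 3.58, 2.02 and 6.40% at 8-12 h. The mean difference of -3.55 points was -1.79 points with at least 3 UMIs. Those counted for glia made up 0.875, 0.974 and 1.43% at 12-16 h and 2.81, 2.15 and 3.85% at 8-12 h. Germ cell shares were also lower at 12-16 h in all 3 experiments, as were amnioserosa, salivary gland and visceral muscle shares, which were higher at 12-16 h in experiment 10 when at least 3 UMIs were asked for. The difference for salivary gland markers was -1.84 points, and -0.62 points with at least 3 UMIs. The summed level of these 6 markers was 2202, 3012 and 2144 CPM at 12-16 h and 2066, 3184 and 1381 CPM at 8-12 h. It was thus lower at 12-16 h in experiment 3 only. A share also depends on the other lists, since a nucleus counts only for its highest list. Of the 6 visceral muscle markers 1 rose and 4 fell. Their summed level nevertheless ran against their share, with 2946, 4558 and 2619 CPM at 12-16 h and 2285, 4127 and 1684 CPM at 8-12 h. Plasmatocyte shares were higher in all 3 experiments, but their markers did not move together. Of the 10 plasmatocyte markers 5 rose, among them Col4a1, vkg and SPARC, and 2 fell, among them NimC4. Fat body and midgut shares differed in sign between experiments. Each difference with 1 sign in 3 pairs has an exact sign-flip permutation p of 0.25, the smallest that 3 pairs can give.

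**Figure D4:**
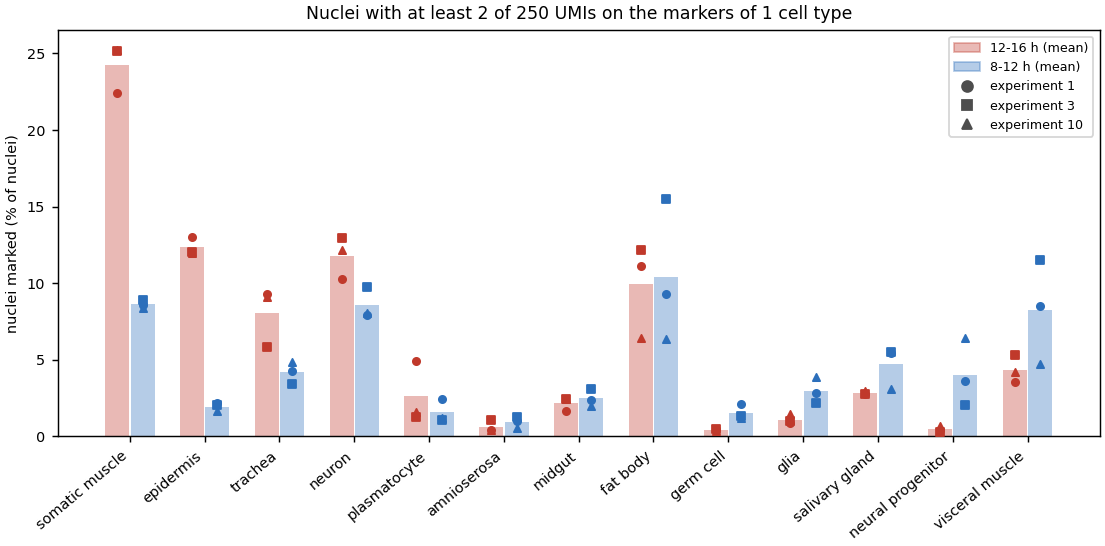
Percent of nuclei with at least 2 of 250 UMIs on the markers of 1 cell type and fewer on those of any other type. Types are in order of the difference between windows, with bars for the mean of 3 experiments and points for each. Somatic muscle (24.3% at 12-16 h and 8.62% at 8-12 h) and epidermis (12.4% at 12-16 h and 1.94% at 8-12 h) have the largest gaps, and neural progenitor and visceral muscle shares are lower at 12-16 h.

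Genes outside the marker lists also differed within a class, here as CPM of all UMIs of the nuclei in it and without a test. Rim had 1965, 2442 and 2637 CPM in nuclei with neuronal markers at 12-16 h, against 34.2, 37.6 and 30.4 CPM in those at 8-12 h, and slo had 2175, 2512 and 2033 CPM at 12-16 h, against 31.6, 30.97 and 23.5 CPM at 8-12 h. The share of nuclei with neuronal markers differed by a mean of 3.23 percentage points. Of the 13 neuronal markers 10 rose and 1 fell, so the class need not hold the same kinds of neuron in both windows, which was not tested. Rim was also present in nuclei with epidermal markers, at 820, 1130 and 1244 CPM at 12-16 h and 13.4, 0 and 25.1 CPM at 8-12 h, which is above the 161.6 to 195.9 CPM in nuclei with fat body markers at 12-16 h. Osi6 was highest with epidermal markers, at 18306, 8318 and 12571 CPM at 12-16 h, against 147.5, 1131 and 1541 CPM at 8-12 h. In nuclei with neuronal markers, which should lack it, Osi6 still had 3720, 1197 and 1263 CPM at 12-16 h, against 80.6, 0 and 42.9 CPM at 8-12 h. Levels of Osi6 of this order outside the epidermal class are not read here as expression by those cells, and their source was not tested.

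For the genes that follow, RNA from outside a class was likewise not separated from its own. Their levels may therefore not all be expression by the cells of the class. The gene ftz-f1 was higher at 12-16 h in every class shown. It had 243.99, 271.6 and 248.5 CPM with neuronal markers at 12-16 h, against 29.01, 42.03 and 49.8 CPM at 8-12 h, and 537.8, 1042 and 804 CPM with epidermal markers at 12-16 h, against 34.9, 64.01 and 83.8 CPM at 8-12 h. The 12-16 h values with fat body markers, 453.6, 1031 and 886 CPM, were close to the epidermal ones. For Dl the lower level at 12-16 h was seen with neuronal markers, at 327.9, 314.6 and 278.9 CPM at 12-16 h, against 2189, 2560 and 1477 CPM at 8-12 h. It was also seen with epidermal markers, at 533.8, 661.7 and 525.9 CPM at 12-16 h, against 1824, 1984 and 1332 CPM at 8-12 h. Nuclei with neural progenitor markers were the exception in experiment 1, with 2818, 1879 and 508.8 CPM of Dl at 12-16 h and 2454, 3209 and 1182 CPM at 8-12 h. That class held 19 and 30 nuclei at 12-16 h in experiments 3 and 10, with 15 and 7 UMIs of Dl. Nuclei with epidermal markers had the most fng, 1868, 1448 and 2250 CPM at 12-16 h, against 805, 875 and 410 CPM at 8-12 h.

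LanA differed in opposite directions in different classes. With plasmatocyte markers it had 14525, 7164 and 15561 CPM at 12-16 h, against 4565, 3705 and 2276 CPM at 8-12 h. With neuronal markers LanA had 583.6, 322.7 and 340 CPM at 12-16 h, against 1097, 1062 and 1369 CPM at 8-12 h, and with epidermal markers 716, 383.4 and 460 CPM at 12-16 h, against 1575, 1547 and 1441 CPM at 8-12 h. The plasmatocyte class was small in experiments 3 and 10, with 86 and 71 nuclei at 12-16 h. Its markers Col4a1, vkg and SPARC are basement membrane genes that rose, while NimC4 fell. The class therefore need not hold the same kinds of cell in both windows, which was not tested. Perlecan, trol, was higher at 12-16 h in all classes shown, with 7493, 14387 and 10666 CPM with plasmatocyte markers at 12-16 h, against 687, 1632 and 530 CPM at 8-12 h. The steroid gene spok was concentrated in nuclei with fat body markers, at 114.6, 175.3 and 102.2 CPM at 12-16 h and 22.6, 16.9 and 24.5 CPM at 8-12 h, against at most 40.01 CPM at 12-16 h with neuronal, muscle, epidermal or plasmatocyte markers.

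**Figure D5:**
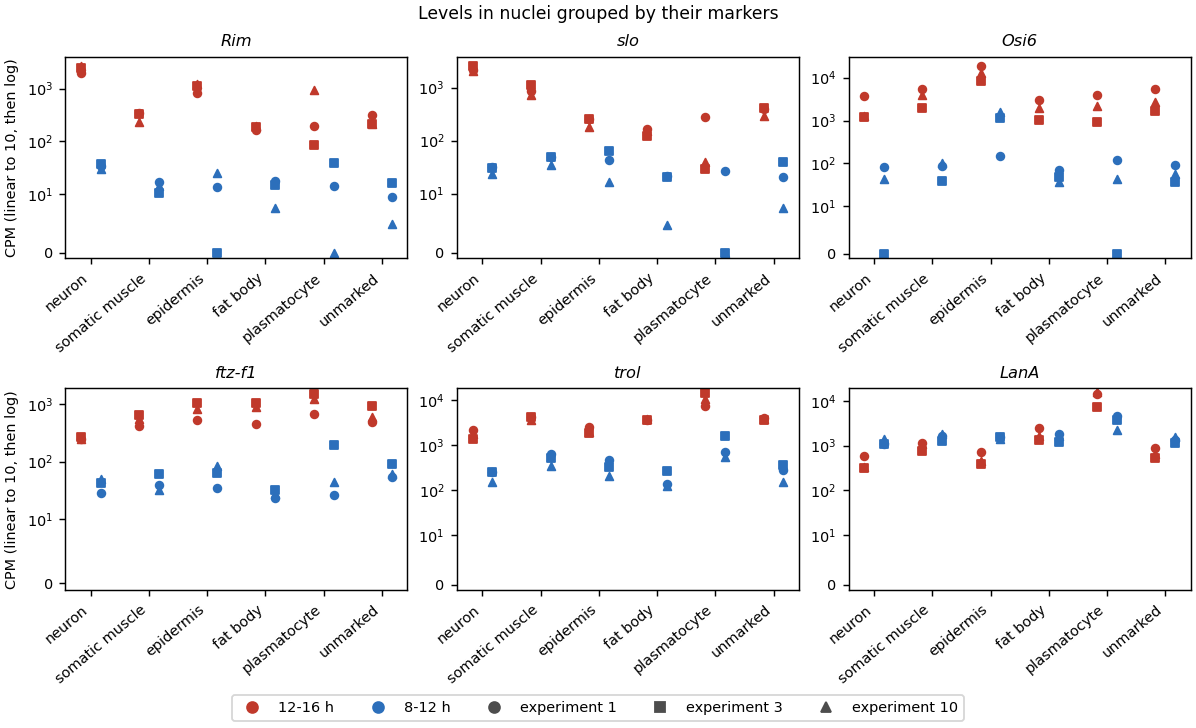
CPM of 6 genes (linear to 10, then log) in nuclei grouped by their markers and in nuclei placed in no class, at 12-16 h (left in each pair, red) and 8-12 h (right, blue), with a symbol for each experiment. Rim and slo are highest with neuronal markers, Osi6 with epidermal markers, and LanA is higher at 12-16 h with plasmatocyte markers and lower with neuronal and epidermal markers.

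The experiments also held the windows before, between and after those compared, scaled here over all 18 sums. Of the genes that rose 81.4% had a mean level at 10-14 h between the others, as did 90.3% of those that fell. At 14-18 h, however, only 8.24% of the genes that rose were above their 12-16 h mean, and only 2.59% of those that fell were below it. At 16-20 h these shares were 54.7 and 30.9%. Osi6 had means of 62.3, 82.3, 2388, 4564, 2408 and 5024 CPM in the windows from 6-10 h to 16-20 h, and Dl had 1946, 1746, 537.6, 457.01, 895 and 455.9 CPM. The cell cycle inhibitor dap stood at 78.4 ± 12.3 CPM at 12-16 h and 164.8 ± 62 CPM at 14-18 h (SD, n = 3). The 14-18 h sums had median inferred ages of 15.1 to 15.6 h, and 93.3 to 95.6% of their nuclei had an inferred age over 12 h. At 12-16 h that share was higher, at 96.1 to 96.9%. The inferred age lay inside the window for 75.2 to 82.9% of the 14-18 h nuclei and for 86.7 to 92.5% of the 12-16 h nuclei. In each of the 3 experiments the 14-18 h level was below the 12-16 h level for 61.1% of the genes that rose. It was above the 12-16 h level in each experiment for 70.1% of those that fell. The genes had been chosen by their 12-16 h values, and the cause of this reversal was not tested.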

How the data were processed

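Nuclei were profiled by sci-RNA-seq3. The authors deposited raw UMI counts per gene and nucleus (dm6, BDGP6 and STAR 2.7.3a are named in the submitters' processing notes) after leaving out nuclei under 250 UMIs and removing doublets. Their deposited cell table gave the window (a label of another kind, read from the reverse transcription barcode), the percent of UMIs on ribosomal and mitochondrial genes, and the inferred age, a score in hours. GEO's samples are PCR wells, of which 803 of 953 held nuclei of both windows.

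UMI counts were summed per experiment and window and fitted with edgeR 4.0.16 (R 4.3.3, filterByExpr, TMM factors, quasi-likelihood test, experiment and window as terms, Benjamini-Hochberg adjusted p as FDR, threshold 0.05), after the code was tested on simulated data. CPM are UMIs per 1000000 UMIs of a sum, with TMM factors. The experiment was kept as a block because an experiment was processed as a unit. Deviations of sums from their window's mean correlated at 0.439 to 0.654 within an experiment and at -0.470 to 0.136 between experiments (Pearson's r across genes, which are not replicates). DESeq2 1.42.0 was an alternative, as were other filters, scalings, nuclei and experiments. Of 18516 gene symbols 17199 (92.9%) had an entry in Ensembl's BDGP6.54 annotation. The 5416 transposable element entries were kept in the fit.

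Named genes were the 12 largest rises and falls with the same sign in each experiment, at least 20 CPM in the higher window and at least 3 UMIs in each sum, up to 8 genes with at most 3 UMIs at 8-12 h, and members of the lists with the highest levels or on which a sentence turns. The choice of the genes between the Osiris genes followed a look at their values. The windows compared, the gene lists and the markers were chosen with earlier results of these data known. Figures were drawn with matplotlib 3.10.9.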

Additional observations from a re-analysis of the deposited data

How the results depend on the processing

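Without the replicate block 17.2% of the genes tested were higher and 5.63% lower at 12-16 h, against 25.8 and 23.2% with it. These were 2357 calls, all among the 5064 with the block, of which 1775 were higher, so that 75.3% of the calls were higher, against 52.7%. With equal numbers of nuclei thinned to 250 UMIs 1420 of 7101 genes tested were lower (19.997%). Leaving out 1 experiment at a time gave 2175 to 2654 genes higher (22.8 to 24.1% of those tested) and 1415 to 2306 lower (14.8 to 21.2%), and the lowest counts came without experiment 1. No call was reversed under any of the 13 alternatives. Of 2825 values of named genes, 2676 kept their side of the threshold, 43 gained a call and the rest lost one, 37 of them without the block. Of the counts of list members 13.7% moved by over 1.5 times. For the classes of nuclei, the difference for neuronal markers was 5.57 points with at least 3 UMIs and 1.31 points without thinning, and that for epidermal markers was 11.1 points without thinning. With at least 3 UMIs the differences were 17.4 points for somatic muscle, -0.793 for glia and -0.443 for germ cells. The causes were not tested. The planned motif shares were not run, because no promoter sequence was used here.

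With 3 pairs of sums, shares of nuclei cannot reach a p under 0.25, and genes of very few UMIs, such as the replication-dependent histones, could not be tested. Nuclear RNA, free RNA between nuclei and the 12-16 h sum of experiment 10, the shallowest at 1861697 UMIs, limit the low values.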
